A study of Mus musculus with 6 samples.

Results

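Aminoacyl-tRNA synthetases are the enzymes that join each amino acid to its transfer RNA, the step that gives the genetic code its meaning. Mammalian cells keep 1 set for translation in the cytosol and another, also encoded in the nucleus, for translation inside mitochondria. Many cytosolic enzymes are known targets of ATF4, a transcription factor made when amino acids run short or proteins misfold. The genes were chosen by symbol (the pattern of Aars, Eprs, Farsa or Aars2), with 1 probe set per gene, the 1 with the highest mean over all 6 arrays. This gave 35 of the 18193 genes tested, 19 cytosolic and 16 mitochondrial. Gars and Kars, which serve both compartments from 1 gene, are counted with the cytosolic enzymes. Tarsl2 lies just outside the pattern. Symbols are those of the platform annotation, in which Aars, for example, stands for the gene also called Aars1.

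The study compared mouse embryonic fibroblasts, connective tissue cells cultured from embryos, with and without the Abl kinases. The wild-type group (MEF-WT) and the abl/arg knockout group (MEF-DKO), which lacks c-Abl (Abl1) and Arg (Abl2), each had 3 Affymetrix arrays. Both groups came from C57BL/6 embryos at 14 days of gestation, males and females pooled, and were grown with 10% serum. No source used here says whether a group is 1 line or several, or whether its 3 arrays came from separate cultures, so a p-value here reflects array-to-array spread alone, and that spread may be technical.

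Median signals were 13.5, 13.4 and 13.7 on the wild-type arrays and 14.7, 14.4 and 14.6 on the knockout arrays, so they separated by group. The number of arrays limits the precision. The lowest correlation between arrays of a group was 0.9985 and the highest between groups 0.905. The log2 ratio of 3' to 5' actin probe sets averaged 0.47 for wild-type and 0.365 for knockout arrays. The targeted genes were not clearly lower in the arrays labelled knockout. Abl1 had signals of 181.6, 183.0 and 189.9 in wild type and 177.7, 170.6 and 161.3 in the knockout arrays (limma adjusted p = 0.0929), and Abl2 had means of 256.1 and 254.1 (adjusted p = 0.874). The other Abl1 probe sets, both dim, were called higher (0.28 and 0.21). With probe sets averaged Abl1 was called at 0.13, and with arrays centred on the median at -0.16. With the bright genes of each chromosome centred Abl1 was at -0.16 and Abl2 at 0.15, both called. Under poly-A and hybridization spike scaling, described below, Abl1 was at 0.32 and -0.35 and Abl2 at 0.43 and -0.26, each called, so the direction of both genes follows the processing. Where their probes lie relative to the deleted parts was not analysed here, so every direction is that of the arrays labelled knockout. Of all genes tested 24.2% were called higher and 35.5% lower, and the marker counts stand beside these shares. Of 17 fibroblast markers 9 were called higher and 4 lower, and their summed signal was 15890 to 16760 in wild type and 25410 to 26530 in the knockout arrays. Single markers differed widely: Col1a2 (2284 to 9.71) and Col3a1 (1934 to 14.9) were near the floor in the knockout arrays, and Pdgfra (9.99 to 1789) and Prrx1 (135.7 to 2888) were far higher there. Of 11 leukocyte markers 3 were called higher, a share near that of all genes. These were Cd14 (99.9 to 400.8), Lyz2 (9.11 to 72.4) and Cd68 (19.3 to 41.0), while Ptprc was at 2.59 and 2.64. The 11 summed to 200.3 to 221 in wild type and 573.2 to 617.1 in the knockout arrays. Of 6 neural markers 2 were called higher and 2 lower, with sums of 202.7 to 223.6 and 462.9 to 553.2 and Sox2 going from 3.67 to 236.2. Endothelial (8), epithelial (7) and muscle (6) markers summed to at most 121.7 on every array. Whether the markers or the actin ratio bear on the results that follow was not tested.

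ATF4 is known to act through the C/EBP-ATF response element. The letters TGATGNAA, the core of that element, were searched on both strands in RefSeq windows of 300 bases (GRCm38.p6, 250 before to 50 after the start). Of the 19 cytosolic genes 12 had a window, and 5 of these held the letters: Aars, Gars, Iars, Tars and Yars. Of the 16 mitochondrial genes 14 had a window and 0 held them. Over all 27025 genes with windows the share was 4.51%. A match is a description of these letters and not a mapped site. The match nearest the start of each gene is shown in 30 bases on the strand of its gene, with the matching letters in capitals, because these 5 genes are described together below.
Yars, chr4:129189895-129189924, plus strand: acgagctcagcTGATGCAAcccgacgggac
Gars, chr6:55037960-55037989, plus strand: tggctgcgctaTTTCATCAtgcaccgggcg
Aars, chr8:111033840-111033869, plus strand: agcgggtcactTTTCATCAgagcgctctga
Iars, chr13:49682126-49682155, plus strand: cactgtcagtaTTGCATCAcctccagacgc
Tars, chr15:11399655-11399684, minus strand: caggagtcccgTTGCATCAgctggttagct

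All 5 of these matches lay close to a listed start. The first base of the match stood 30 bases before the start in Gars and 15 before it in Tars. It was base 4 after the start in Yars, base 8 in Iars and base 10 in Aars. Only in Yars did the letters read TGATGNAA on the strand of the gene; the other 4 matches shown lay on the opposite strand. The 250 bases before the start are given for Gars, whose fall was among the largest, and for Tars, whose fall was close to the cytosolic median, with the match in capitals.
Gars, chr6:55037751-55038000, plus strand: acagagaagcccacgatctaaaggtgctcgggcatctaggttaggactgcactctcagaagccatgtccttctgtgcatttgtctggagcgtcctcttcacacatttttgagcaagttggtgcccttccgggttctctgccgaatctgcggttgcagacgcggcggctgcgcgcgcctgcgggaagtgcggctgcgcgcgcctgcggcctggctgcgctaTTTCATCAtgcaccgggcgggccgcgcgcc
Tars, chr15:11399659-11399908, minus strand: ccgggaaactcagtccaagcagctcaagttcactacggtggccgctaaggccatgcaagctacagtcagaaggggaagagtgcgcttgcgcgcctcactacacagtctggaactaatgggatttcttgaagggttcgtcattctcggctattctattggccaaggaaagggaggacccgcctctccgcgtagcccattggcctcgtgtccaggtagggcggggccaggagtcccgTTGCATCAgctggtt

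The main question was how synthetase transcripts differ between arrays labelled wild type and arrays labelled knockout. Nearly all cytosolic enzymes were lower in the knockout arrays. Differences are knockout minus wild type on log2(signal + 16), a scale that understates changes of dim genes, and a gene is said to have risen or fallen at a limma adjusted p under 0.05 over all genes. Of the 19 cytosolic genes 17 fell (3 of these, Farsa, Mars1 and Wars, turned sign under a scaling given below), 8 of them at least 2-fold, 1 rose and 1 did not pass, with a median difference of -0.86. Of all genes tested 35.5% fell and 24.2% rose (59.7% in either direction), 8.77% fell and 7% rose at least 2-fold, and their median difference was -0.03. The 3 knockout arrays lay wholly below the 3 wild-type arrays for 17 cytosolic genes and wholly above them for 1, beside 39% and 25.7% of all genes. Among the 6327 genes whose mean signal lay within the range of the cytosolic enzymes, 47.2% fell and the median was -0.07. The mean log2 signal over the 19 genes was 9.94 to 10.01 on the wild-type arrays and 9.08 to 9.15 on the knockout arrays.

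**Figure D1:**
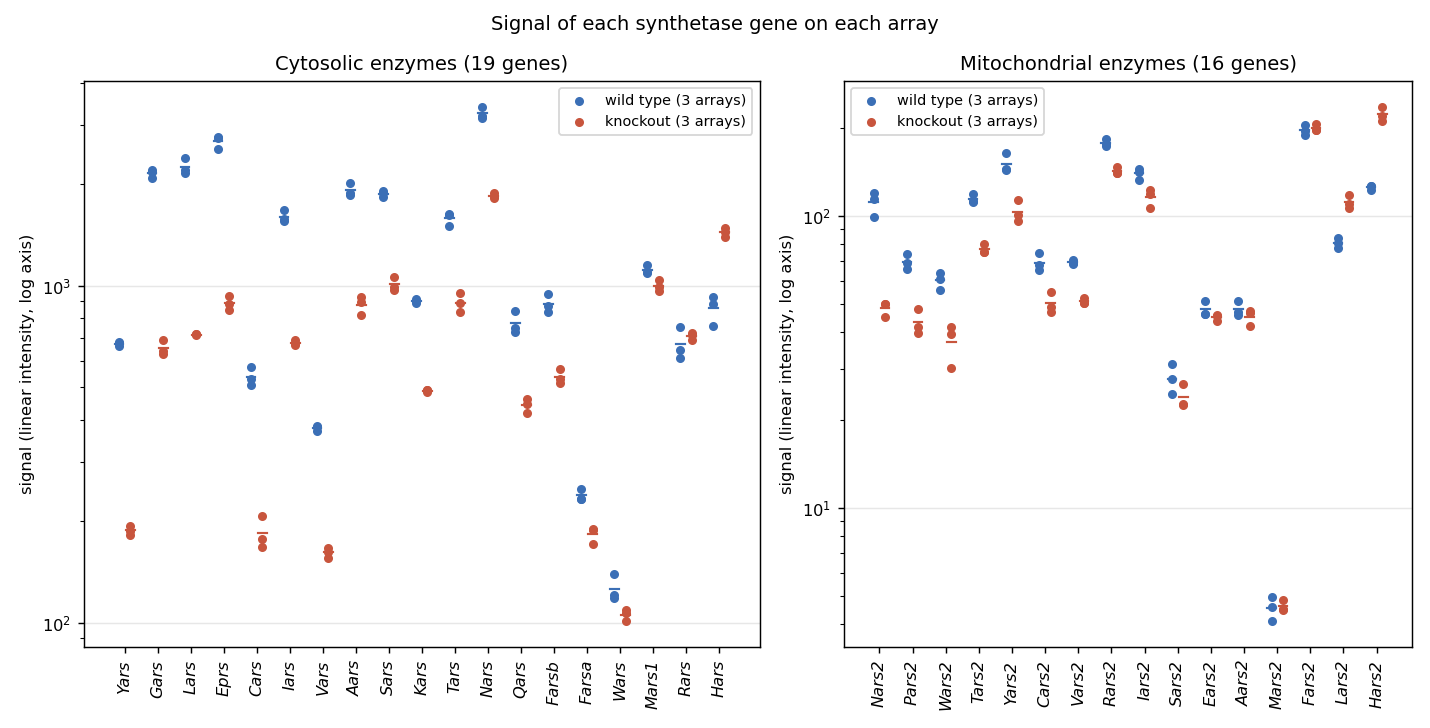
Signal (linear intensity on a log axis) of each of the 19 cytosolic and 16 mitochondrial synthetase genes on the 3 wild-type and 3 knockout arrays, with points for arrays and dashes for group means, genes ordered by their difference. Heights of different genes come from different probes and are not comparable; the knockout points lie below the wild-type points for 17 of the 19 cytosolic genes, and above them for Hars.

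The enzymes with the largest falls load chemically unlike amino acids. Yars, the tyrosyl enzyme, gave signals of 680.1, 662.7 and 675.5 in wild type and 182.3, 187.4 and 194.5 in the knockout arrays. Its log2 difference of -1.76 ± 0.04 (SE, limma adjusted p = 3.44e-12) was the lowest of the 35 as deposited. Its 95% interval overlapped that of Gars. With the bright genes of each chromosome centred, Lars (-1.88), Iars (-1.56), Eprs (-1.42), Gars (-1.41), Cars (-1.23) and Nars (-1.05) were below Yars (-1.03). Gars, the glycyl enzyme of both compartments, gave 2173, 2085 and 2199 against 640.8, 628.5 and 688.2, a difference of -1.70 ± 0.04 (adjusted p = 5.28e-12). Knockout values of both genes lay far below every wild-type value, with gaps much wider than the spread within a group. Lars, the leucyl enzyme that also takes part in leucine sensing, gave 2393, 2197 and 2163 against 717.6, 712.4 and 720.5 (-1.63 ± 0.04, adjusted p = 7.35e-12). Eprs, a fused enzyme that loads both glutamate and proline, gave 2760, 2741 and 2547 against 929.4, 848.1 and 882.2 (-1.58 ± 0.05). All 4 of these genes were also called lower under each other scaling tried.

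Cars, the cysteinyl enzyme, followed with signals of 529.9, 508.4 and 575.9 in wild type and 177.5, 168.2 and 207.2 in the knockout arrays (-1.47 ± 0.07). Iars, the isoleucyl enzyme, fell from 1604 ± 60.3 to 677.7 ± 11.7 (SD, n = 3 each), a difference of -1.22. Vars, the valyl enzyme, fell from 378.7 to 161.9 (-1.15). Aars, the alanyl enzyme, gave 2019, 1858 and 1879 against 895.7, 816.3 and 923.4 (-1.11 ± 0.05, adjusted p = 1.02e-09). The order among neighbours such as Gars and Lars, or Iars, Vars and Aars, is not resolved, since their 95% intervals overlap (-1.79 to -1.60 for Gars and -1.72 to -1.53 for Lars).

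A second group of cytosolic enzymes fell by less than 2-fold on the probe sets used. The seryl enzyme Sars (1875 to 1010, -0.88), the lysyl enzyme Kars of both compartments (901.5 to 488.6, -0.86) and the threonyl enzyme Tars (1588 to 891.5, -0.82) lay close to the median. The asparaginyl enzyme Nars fell from 3242 ± 133 to 1851 ± 30.8 (-0.80) and the glutaminyl enzyme Qars from 774.7 ± 60.5 to 441.8 ± 21.2 (-0.79). Farsb, the beta subunit of the phenylalanyl enzyme, fell from 883.7 to 536.3 (-0.70) and Farsa, its alpha subunit, from 239.0 to 183.4 (-0.36). The intervals of the partner subunits did not overlap, at -0.82 to -0.59 for Farsb and -0.48 to -0.23 for Farsa. The second bright probe set of Nars differed by -1.54 against -0.80 for the one used, so the size for Nars depends on the probe set. Under poly-A spike scaling all but Farsa of these 7 stayed called lower but at smaller sizes: Sars was at -0.42, Kars at -0.40, Tars at -0.36, Nars at -0.33, Qars at -0.33 and Farsb at -0.24. Kars was at -0.37 with chromosomes centred, and Qars turned to 0.18 without x, s and a probe sets, then on a dim probe set. Scaled on the poly-A controls, Farsa was at 0.08 (limma adjusted p = 0.400), and with the bright genes of each chromosome centred it was at 0.14 (adjusted p = 0.0443).

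The remaining 4 cytosolic enzymes changed little or rose. Mars1, the methionyl enzyme that starts every protein, gave 1099, 1094 and 1155 in wild type and 963.7, 993.1 and 1038 in the knockout arrays, a difference of -0.16 (limma adjusted p = 0.00539) that was 0.31 under poly-A spike scaling. Wars, the tryptophanyl enzyme, known to be induced by interferon, gave 139.5, 121.3 and 118.2 against 109.1, 101.1 and 107.4. Its difference of -0.22 (limma adjusted p = 0.0166) did not pass without wild-type replicate 1 (-0.16, adjusted p = 0.0831) or knockout replicate 2 (-0.19, adjusted p = 0.0622). It turned to 0.19 under poly-A spike scaling (adjusted p = 0.0960). All 3 other Wars probe sets were lower too, by -0.28, -0.50 and -0.33. Of 14 interferon genes measured beside it, 12 fell and 2 rose, with a median of -2.41, where 35.5% of all genes fell and 24.2% rose. Under poly-A spike scaling 9 of the 14 fell and 2 rose, with a median of -2.00. Whether they bear on Wars was not tested.

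Rars, the arginyl enzyme, had overlapping values of 752.9, 646.0 and 610.6 in wild type and 712.1, 688.4 and 722.5 in the knockout arrays. Its difference was 0.08 (95% interval -0.06 to 0.22, limma adjusted p = 0.298), and without wild-type replicate 1, the highest of its group, it was 0.17 (adjusted p = 0.00882). Under poly-A spike scaling it was 0.54. Hars, the histidyl enzyme, was the only cytosolic gene that rose with the values as deposited. It gave 929.1, 885.6 and 759.7 in wild type and 1397, 1487 and 1442 in the knockout arrays, a difference of 0.74 ± 0.06 (adjusted p = 3.77e-07), and its second probe set rose by 0.62. Hars kept its rise under each of the 20 alternatives, between 0.48 and 1.21.

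**Figure D2:**
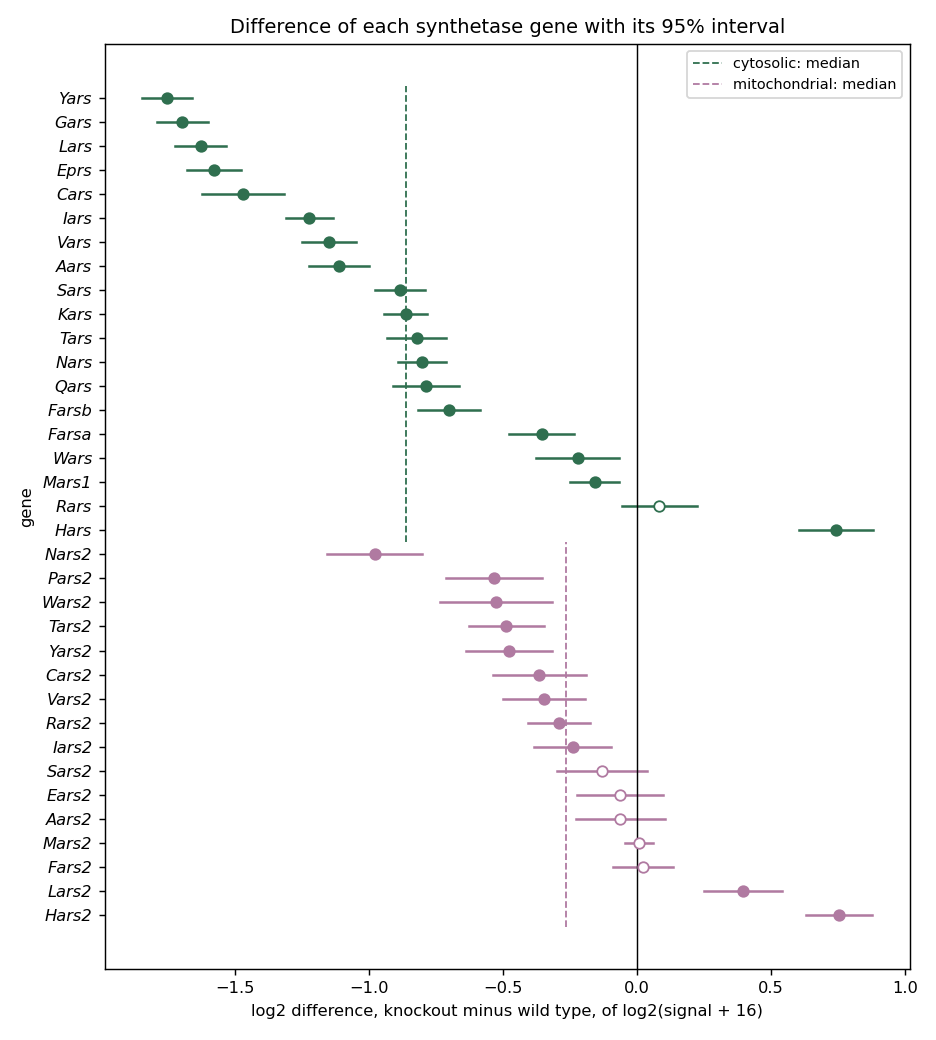
Log2 difference (knockout minus wild type, of log2(signal + 16)) of the 35 synthetase genes with 95% intervals from limma, filled where the adjusted p was under 0.05, cytosolic genes above and mitochondrial genes beneath them, each class with its median as a dashed line (-0.86, and -0.27, which turns to 0.12 under poly-A spike scaling). The cytosolic genes run from -1.76 (Yars) to 0.74 (Hars) and the mitochondrial genes from -0.98 (Nars2) to 0.75 (Hars2).

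The mitochondrial enzymes moved less and in both directions. Of 16 genes 9 fell, 2 rose and 5 did not pass, with a median of -0.27 that turned to 0.12 with arrays scaled on poly-A spike controls. On the log2(signal + 16) scale 0 of the 9 fell at least 2-fold, but that rests on the offset. With an offset of 1 Nars2 was at -1.18, past 2-fold. Among the 10349 genes with a mean signal in the range of these enzymes, 37.5% fell and the median was -0.05. Nars2, the mitochondrial asparaginyl enzyme, fell most, from 119.8, 114.2 and 99.3 in wild type to 45.11, 50.03 and 49.91 in the knockout arrays (-0.98 ± 0.08, limma adjusted p = 2.78e-07). Pars2 (69.5 to 43.2, -0.53), Wars2 (60.1 to 37.0, -0.53), Tars2 (114.0 to 76.8, -0.49) and Yars2 (150.0 to 103.3, -0.48), which load proline, tryptophan, threonine and tyrosine, fell by smaller amounts. Cars2 (-0.37), Vars2 (-0.35), Rars2 (-0.29) and Iars2 (-0.24) also fell. Under poly-A spike scaling Nars2 was the single mitochondrial gene still called lower, and Cars2, Iars2, Rars2 and Vars2 turned to between 0.006 and 0.18.

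Hars2, the mitochondrial histidyl enzyme, rose with Hars. It gave 126.2, 122.4 and 126.7 in wild type and 210.6, 219.8 and 235.8 in the knockout arrays (0.75 ± 0.06, limma adjusted p = 1.05e-07), and its other probe set rose by 1.07. Hars and Hars2 are direct neighbours on chromosome 18, on which 177 bright genes (mean log2 signal above 7) had a median difference of 0.25. Lars and Nars lie on the same chromosome and fell. Lars2, the mitochondrial leucyl enzyme, rose from 80.6, 77.4 and 83.8 to 109.5, 106.5 and 117.8 (0.40 ± 0.07, adjusted p = 0.000198). A dim Lars2 probe set fell from 22.4 to 10.2, and with probe sets averaged Lars2 was at -0.06 (adjusted p = 0.360).

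Aars2, Ears2, Fars2, Mars2 and Sars2 did not pass. Aars2, the alanyl enzyme, had a difference of -0.06 (95% interval -0.23 to 0.10), and Ears2, the glutamyl enzyme, of -0.06 (-0.22 to 0.10). Fars2, the phenylalanyl enzyme, was at 0.02 (-0.09 to 0.14), with signals of 195.8 ± 8.19 and 199.1 ± 5.49 (SD, n = 3 each). Sars2, the seryl enzyme, was at -0.13 (-0.30 to 0.04), and Mars2, the methionyl enzyme, stood near the floor of the arrays at 4.54 and 4.62. A p that misses the threshold does not show that these genes were the same in both groups, and the intervals cover array-to-array spread alone. Under poly-A and hybridization spike scaling Fars2 was at 0.46 and -0.22, Aars2 at 0.29 and -0.26, and Ears2 at 0.29 and -0.26, each called. Sars2 was at 0.16 (adjusted p = 0.109) and -0.29 (called). It was also called lower with quantile normalization (-0.19, limma adjusted p = 0.0451) and with arrays centred on the median (-0.18, limma adjusted p = 0.0471).

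Scaling moved both classes by similar amounts, and the mitochondrial genes, which lie nearer to 0, changed sign more often under poly-A spike scaling. The mean log2 signal of the poly-A spike controls differed by -0.47 between the groups and that of the hybridization spike controls by 0.26. Scaling on the former moved the median difference of all genes from -0.03 to 0.11, and scaling on the latter to -0.12. Under poly-A spike scaling 14 of the 19 cytosolic genes fell, 3 rose and the median was -0.40, while 16.5% of all genes fell and 53.6% rose. Among the 16 mitochondrial enzymes 1 fell, 6 rose and the median was 0.12, beside 0.13 for genes in their range of signal, of which 18.2% fell and 52.9% rose. Under hybridization spike scaling 17 cytosolic and 13 mitochondrial genes fell, with medians of -1.12 and -0.50, while 58.9% of all genes fell and 16.7% rose. The 14 cytosolic genes below -0.7 as deposited were called lower under each of the 4 other scalings tried.

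A difference between genes of the same array cancels a scaling factor common to them, apart from the offset of 16. For 17 pairs of a cytosolic and a mitochondrial enzyme of the same amino acid, the log2 signal of the latter was subtracted from that of the former on each array. As deposited, 13 of 17 pairs had the cytosolic enzyme lower relative to its partner in the knockout arrays, with the 6 arrays separated by group. Shifts of whole chromosomes are not cancelled. With the bright genes of each chromosome centred Farsa was at 0.14 and Fars2 at -0.32, so that pair, 1 of the 13, turned. For Mars1 against Mars2 (-0.16), 1 of the 13, Mars2 was near the floor, so this value is in effect that of Mars1 and cancels no scaling; under poly-A spike scaling Mars1 was at 0.31 and Mars2 at 0.11. Lars against Lars2 had the widest gap, with a difference of -2.03 between the groups; Lars was lower and Lars2 higher in the knockout arrays. Eprs against Ears2 (-1.52), Yars against Yars2 (-1.28), Cars against Cars2 (-1.11), Aars against Aars2 (-1.05) and Eprs against Pars2 (-1.05) also exceeded 1. With probe sets averaged Cars against Cars2 was -0.49 and Eprs against Pars2 -0.67, and with an offset of 1 the latter was -0.92. With chromosomes centred Yars was at -1.03 and Yars2 at -0.08, and Aars at -0.62, with the dim Aars2 left at -0.06. Neither of these gaps then exceeded 1. The median over the pairs was -0.75. A two-sided exact permutation test gave p = 0.1 for each separated pair, the smallest that 3 arrays against 3 allow (0.113 after Benjamini-Hochberg adjustment over the 17 pairs), so none of these differences can pass 0.05 by that test. Pairs that share Eprs or Fars2 are not independent.

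In 3 pairs, with the values as deposited, the cytosolic enzyme was not lowered more. Rars against Rars2 differed by 0.37 and Nars against Nars2 by 0.18, with arrays separated in both (exact permutation p = 0.1, n = 3 each), and Wars against Wars2 by 0.31 with overlap (exact permutation p = 0.2, n = 3 each). Nars against Nars2 turned to -0.65 with probe sets averaged and to -0.15 with an offset of 64. With the bright genes of each chromosome centred Rars was at -0.06 and Rars2 at 0.43, so that pair turned. Nars was then at -1.05, below the dim Nars2, which was left at -0.98. Hars and Hars2 both rose, and their pair differed by -0.01 between the groups with overlapping values (exact permutation p = 0.9, n = 3 each). That value depends on the probe sets and the offset: it was -0.23 with probe sets averaged and 0.12 with an offset of 64.

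**Figure D3:**
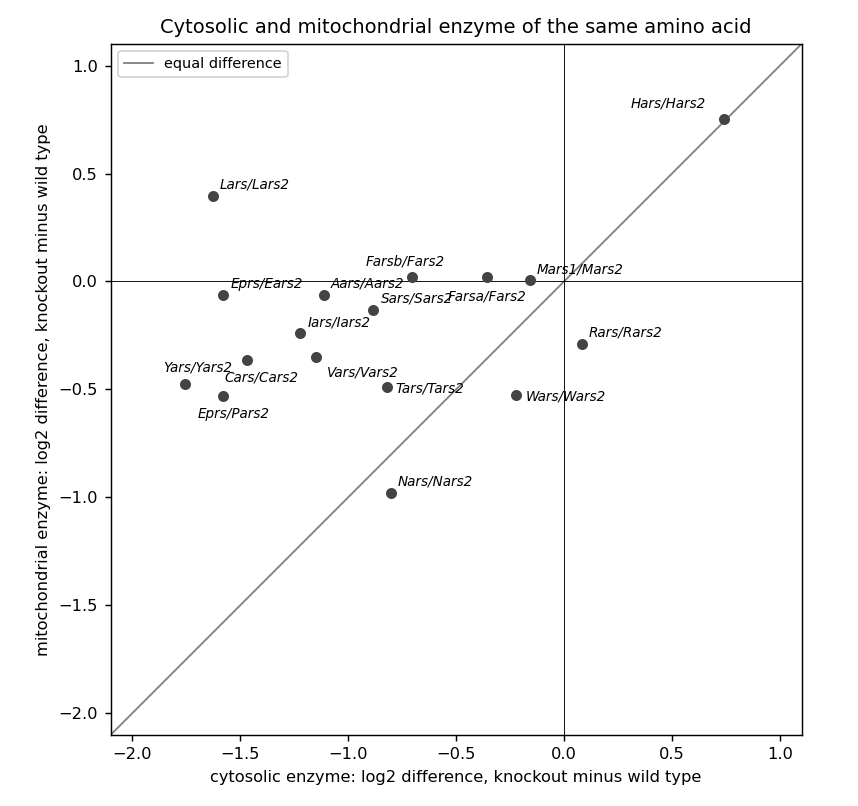
Log2 difference (knockout minus wild type) of the cytosolic enzyme (horizontal axis) against that of the mitochondrial enzyme of the same amino acid (vertical axis), 1 point for each of 17 pairs, with a line of equal difference. Points left of the line are pairs in which the cytosolic enzyme was the lower of the pair in its difference (13 of 17), 3 points lie right of it, Hars/Hars2, of which both genes rose, lies almost on it, and Lars/Lars2 lies farthest from it (-2.03). Farsa/Fars2, Rars/Rars2 and Nars/Nars2 change sides with the bright genes of each chromosome centred.

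The cytosolic enzymes were also grouped by how they work. Of those held in the multisynthetase complex, a large assembly of several synthetases on scaffold proteins, 7 were measured (Eprs, Iars, Kars, Lars, Mars1, Qars and Rars). In the complex 6 of 7 fell with a median of -0.86, and outside it 11 of 12 fell with a median of -0.85. The 10 enzymes of class I, which share a Rossmann-fold active site (Eprs, which joins both classes, is counted here), had 9 falls and a median of -1.19, and the 9 of class II had 8 falls and a median of -0.82. Of all genes tested 35.5% fell, and of genes within the cytosolic range of signal 47.2% fell. Whether the groups of enzymes differ from each other was not tested.

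The scaffolds and partners of the synthetases moved unequally. Aimp2, a scaffold at the core of the complex, fell from 666.4 ± 33.2 to 272.1 ± 16.7 (SD, n = 3 each; -1.25 ± 0.05, limma adjusted p = 5.39e-10). Aimp1, which anchors the arginyl enzyme, fell from 953.3 to 601.2 (-0.65, adjusted p = 3.82e-08), and was at -0.19 under poly-A spike scaling (adjusted p = 0.0525). Eef1e1, the third scaffold, had signals of 682.5 and 639.6 (-0.09, adjusted p = 0.0997), and was called at 0.37 with poly-A and at -0.35 with hybridization spike scaling. In mitochondria, where an amidotransferase corrects glutamate on the glutamine tRNA, its subunit gene Qrsl1 fell from 123.6 to 82.5 (-0.50), Gatb rose from 33.3 to 48.2 (0.38) and Gatc had 123.7 and 133.4 (0.10, adjusted p = 0.250). Neither call held throughout: Qrsl1 gave -0.10 with poly-A and Gatb 0.19 with hybridization spike scaling. Mtfmt, which formylates the methionyl initiator, had 71.3 and 81.9 (0.16, adjusted p = 0.0551).

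Genes that act before and after charging did not move as a block. Their counts stand beside 35.5% of all genes that fell and 24.2% that rose. Of 22 tRNA processing, export and modification genes 11 were called higher and 11 lower, the median being -0.02 (13 and 5 under poly-A spike scaling, median 0.42). The tRNA deaminase gene Adat2 fell by 2.33 and Xpot, the exporter of tRNA from the nucleus, by 1.19 (-0.50 with probe sets averaged), while the methyltransferase gene Trmt61a rose by 1.5. Of 8 elongation factor genes 5 fell and 0 rose, the largest falls being those of Eef1d (0.47), Gfm2 (0.38) and Eef1b2 (0.37) on the log2 scale. Under poly-A spike scaling 0 of the 8 fell and 5 rose, where 16.5% of all genes fell and 53.6% rose. With probe sets averaged Eef1d was at -0.26 and Gfm2 at -0.20, and with chromosomes centred Eef1b2 was at -0.21. Of 8 proofreading and selenocysteine genes 5 fell and 2 rose. The selenocysteine tRNA factor Trnau1ap was at -1.35 (-0.62 with chromosomes centred), the kinase Pstk, which prepares that tRNA, at -1.31 (-0.67 with probe sets averaged) and the proofreading gene Prorsd1 at 0.81 (0.51 with an offset of 64). Tarsl2, a second cytosolic threonyl enzyme, fell from 92.0, 98.8 and 97.6 to 31.3, 30.3 and 36.6 (-1.20 ± 0.08, limma adjusted p = 2.91e-08).

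Other known targets of ATF4, most of which make or import amino acids, were mostly lower. Among 27 measured, 22 were called lower and 3 higher, where 35.5% of all genes fell and 24.2% rose. The median of the 27 targets was -1.83, against -1.37 when scaled on poly-A controls and -2.09 on hybridization controls. Aldh1l2, a mitochondrial folate enzyme, fell by 5.67 and Cth, which makes cysteine, by 4.40 on the log2 scale, while Stc2, a secreted glycoprotein, rose by 4.99. Aldh1l2 was at 8.42 in the knockout arrays and Stc2 at 3.84 in wild type, near the floor, so the offset sets these sizes. With offsets of 1 and 64 Aldh1l2 was at -7.04 and -4.16 and Stc2 at 7 and 3.32, and with probe sets averaged Stc2 was at 3.46. Asns, asparagine synthetase, named after its values were seen, fell from 3304 ± 122 to 327.6 ± 21.2 (SD, n = 3 each; -3.27 ± 0.05). Transcript of Atf4 itself, also named after its values were seen, fell from 3600 to 2872 (-0.32 ± 0.04, limma adjusted p = 3.26e-05) and was at 0.15 under poly-A spike scaling (adjusted p = 0.232). ATF4 is known to be controlled at translation, which these arrays do not measure. A list of 9 stress signalling genes holds some that sense or relay amino acid shortage and some that do not. Of these 9 genes 4 rose and 5 fell (5 and 3 with poly-A, 1 and 5 with hybridization spike scaling). Over all genes 59.7% were called in either direction as deposited. Eif2ak4, the kinase that binds uncharged tRNA, rose by 1.14 (0.70 with probe sets averaged and 0.26 without x, s and a probe sets), and the kinase gene Eif2ak2 (-1.04) and the phosphatase subunit gene Ppp1r15a (-0.86) were lower.

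**Figure D4:**
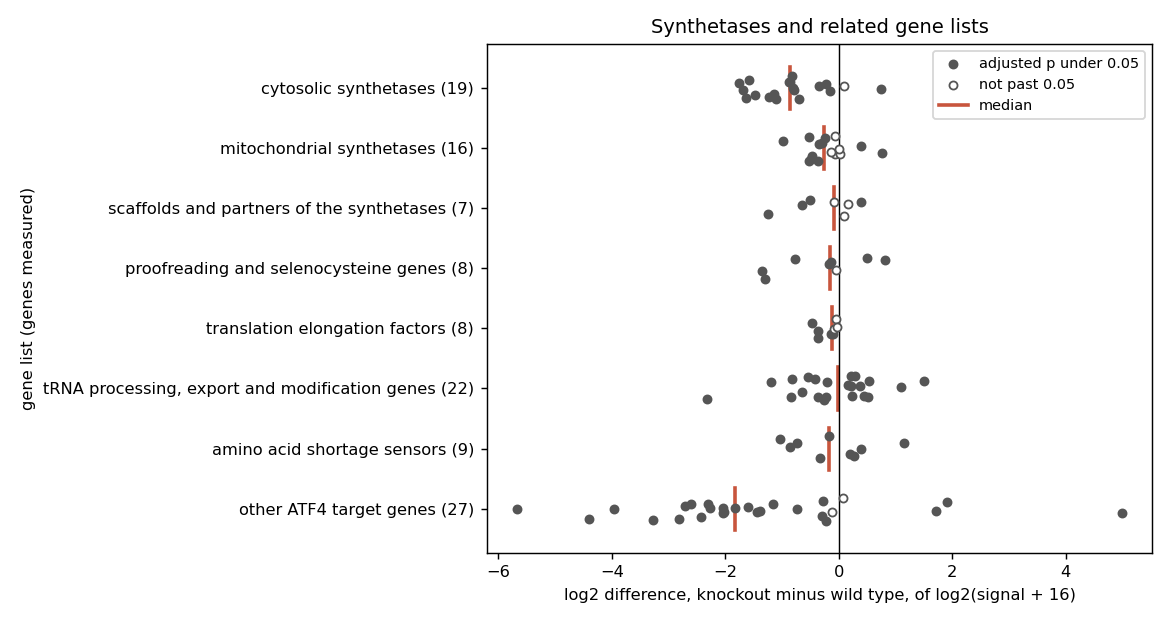
Log2 difference (knockout minus wild type, of log2(signal + 16)) of each measured gene of the cytosolic and mitochondrial synthetases and of 6 related lists; filled points passed an adjusted p of 0.05 and bars mark medians. The medians are -0.86 for cytosolic synthetases, -0.27 for mitochondrial synthetases (0.12 under poly-A spike scaling) and -1.83 for other ATF4 targets, and between -0.18 and -0.02 for the remaining lists, all of which turn positive under poly-A spike scaling. The list labelled amino acid shortage sensors also holds stress genes that do not sense such a shortage.

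The 5 genes with the TGATGNAA letters fell, with a median of -1.22 and values from -1.76 (Yars) to -0.82 (Tars). The 7 cytosolic genes whose windows lack the letters fell too, with a median of -0.79 and values from -1.58 (Eprs) to -0.16 (Mars1), so both sets overlap. Cars, Hars, Lars, Nars, Rars, Vars and Wars had no window and are in neither set. Among them are Hars, which rose, and Rars, which did not pass. The E-box CACGTG, the letters bound by Myc and related factors, was in 4 of the 12 cytosolic windows (Aars, Farsb, Iars and Tars), in 1 of the 14 mitochondrial windows (Ears2) and in 8.09% of all genes. Both words can share the letters TG where they meet, which is not the case in any of the 5 stretches shown. Shares over all tested genes with a window are given as a description, with no test. Of 468 tested genes with TGATGNAA in a window 32.1% fell, 21.2% rose and the median was -0.03. Of 13984 with a window but without TGATGNAA 36.4% fell and 24.3% rose, also with a median of -0.03. With CACGTG 35.1% fell and 30.6% rose, and without it 36.4% fell and 23.5% rose.

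Bright probe sets of a gene gave the same direction, and dim ones often did not. The 35 genes had 72 single-gene probe sets. Of 32 other probe sets of called genes 21 were called in the same direction, 5 in the opposite direction and the rest not at all. Of 15 other probe sets with a mean signal above 50 that belong to a called gene, 15 were called in the same direction. All 5 probe sets called in the opposite direction were dim, with mean signals of at most 25.2, and belong to Eprs, Farsa (2), Lars2 and Qars. Bright genes on the chromosomes of some members were lower as a whole, with medians of -0.72 on chromosome 4 (Yars, Pars2 and Rars2) and -0.49 on chromosome 8 (Aars, Cars2, Farsa and Kars). With the bright genes of each chromosome centred on their median (dimmer genes were left as they were), 15 of the 19 cytosolic genes fell, 2 rose and the median was -0.80. Yars was then at -1.03, Aars at -0.62 and Kars at -0.37, while Rars2 turned to 0.43 and Fars2 to -0.32, both called.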

How the data were processed

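The authors deposited 1 linear signal intensity per probe set and array; MAS5 is named in the submitters' processing notes, and no source used here gives its version, scaling or detection calls. Per the labels, 6 µg of total RNA was biotin-labelled. The table held 45101 probe sets, of which the platform annotation gives 1 symbol for 34945. The probe set of highest mean signal stood for each of 18193 genes. Signals were taken as log2(signal + 16) and fitted with limma 3.58.1 in R 4.3.3 (lmFit, eBayes with trend), with Benjamini-Hochberg adjustment over all genes and a threshold of 0.05. The fit was tested on simulated data. The members and all lists were chosen with earlier results of these data known. Members are all named; in related lists, the 3 largest called differences are named and the scaffolds in full. Promoters are RefSeq's (GRCm38.p6), with matching by symbol. The alternatives are given in the closing section. Figures were drawn with matplotlib 3.10.9.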

Additional observations from a re-analysis of the deposited data

How the results depend on the processing

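Of 20 alternatives, the falls of Aars, Cars, Eprs, Farsb, Gars, Iars, Kars, Lars, Nars, Nars2, Sars, Tars, Vars and Yars and the rises of Hars and Hars2 kept their direction and their side of the threshold wherever the gene was measured. The cytosolic median was -0.81 with an offset of 64, -0.91 with arrays centred on the median, -0.40 when scaled on poly-A spikes, -1.12 on hybridization spikes and -0.80 with the bright genes of each chromosome centred. The mitochondrial median was -0.20, -0.32, 0.12, -0.50 and -0.11 under these, and -0.17 with probe sets averaged. Under poly-A spike scaling 3 cytosolic genes rose, 1 mitochondrial gene fell and 6 rose. Cytosolic genes that rose numbered 2 with chromosomes centred, 2 without x, s and a probe sets, and 1 to 2 when 1 array was left out. Mitochondrial genes that rose numbered 1 under hybridization spike scaling and with probe sets averaged. Over all genes, 9738 fell with arrays centred on the median, 3006 fell and 9754 rose under poly-A and 10722 fell under hybridization spike scaling, and the median turned to 0.11 under poly-A.

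Under poly-A spike scaling Aars2 (0.29), Cars2 (0.0059), Ears2 (0.29), Farsa (0.083), Iars2 (0.18), Mars1 (0.31), Rars2 (0.14), Vars2 (0.025) and Wars (0.19) turned sign, and under hybridization spike scaling Fars2 (-0.22) did. With probe sets averaged Farsa (0.10) and Lars2 (-0.062) turned, as did the pairs Farsa/Fars2 (0.22) and Nars/Nars2 (-0.65), and without x, s and a probe sets Qars (0.18), then on a dim probe set. With an offset of 64 the pairs Hars/Hars2 (0.12) and Nars/Nars2 (-0.15) turned. With chromosomes centred Fars2 (-0.32), Farsa (0.14), Rars2 (0.43) and Wars (8.6e-05) turned. So did the order within the pairs Farsa/Fars2, Rars/Rars2 and, narrowly, Nars/Nars2. The cause was not tested.

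The replicate numbers are shared by the groups, but the correlations of same-numbered arrays' deviations were 0.04, 0.11 and 0.17, so the numbers were not taken as pairs. With a replicate block 17 cytosolic and 9 mitochondrial genes fell. Signals near the floor, such as that of Mars2, limit what can be seen.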
